A study of Vitis vinifera with 72 samples.

Results

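In the 100 genes described here, Sangiovese berries exceeded Cabernet Sauvignon berries at Bolgheri in 2012 by more than in any of the other 5 combinations of area and year, at both growth stages measured. For 1 member at each stage the difference in Bolgheri 2012 was still below 0, and more so elsewhere. They were chosen by their FPKM values from 29971 gene IDs. For each ID the group means of log2(FPKM + 1) were compared, Sangiovese minus Cabernet Sauvignon, in each of the 6 environments, an environment being 1 area in 1 year. At each stage the largest such difference outside Bolgheri 2012 was subtracted from the Bolgheri 2012 difference, which gave a margin, and the smaller of the 2 margins was the gene's score. The 100 highest scores were kept among 13123 IDs that averaged at least 5 FPKM in the 6 Sangiovese libraries of Bolgheri 2012 and lay outside 3 stretches of IDs. Those stretches, whose IDs begin with VIT_16s0100g, VIT_10s0042g and VIT_16s0039g01, hold 327 IDs, 18 of which would otherwise have been among the 100. All 100 members passed the filter on low values and were tested with 20443 genes in all.

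RNA of the berry pericarp (skin and flesh) was sequenced in 72 libraries, 24 groups of 3 biological replicates. The groups combine the cultivars Sangiovese and Cabernet Sauvignon, the stages pre-veraison (PV, code 79 of the BBCH scale of plant development) and mid-ripening (MR, code 83), the areas Bolgheri, Montalcino and Riccione in central Italy, and the seasons 2012 and 2011. The vines were grown in the field, and the labels name no treatment. As far as the labels tell, each area stands for 1 site, and no batch is given, so that season and sequencing batch cannot be told apart. FPKM counts the fragments of a gene per kilobase of its transcript and as a share of everything mapped, so a value is relative to all other RNA of its library. In these bulk samples, fewer cells of a type and less RNA per cell cannot be told apart.

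Veraison is the onset of ripening, when the berry softens, gathers sugar and, in red cultivars, colours. In the phenylpropanoid pathway, phenylalanine ammonia-lyase, cinnamate 4-hydroxylase and 4-coumarate-CoA ligase act in sequence to make coumaroyl-CoA. Stilbene synthase turns it into resveratrol, a defence compound that builds up in ripening berries and after wounding, ultraviolet light or fungal attack, and chalcone synthase directs it to flavonoids. The grapevine transcription factors MYB14 and MYB15 are known to activate stilbene synthase genes. The files do not pair gene IDs with names, and none of the IDs (0) matched the gene table at hand, so members are given by ID and without a role.

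Relative depth, estimated from the steps between low values, lay between 0.525 and 2.24 times a typical library. Both extremes are in the Cabernet Sauvignon PV group of Bolgheri 2012. The 6 Sangiovese libraries of that site and year lay between 0.825 and 1.14. Replicates correlated at 0.969 or more across genes, and no pair of libraries was identical.

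In the label's sense of genes raised in Sangiovese, the members fell into a majority that were highest there and a minority that were not. The Sangiovese mean was higher in Bolgheri 2012 than in the other 5 environments for 86 members at MR and 88 at PV, and for 75 at both stages. Over all genes tested these shares are 21.5%, 25% and 5.1%, but the rule used these values, so nothing is read from the gap. The other 25 members were not highest there at one stage or more. VIT_12s0057g01020 was highest there at neither stage: at MR it had 57.51, 58.43 and 57.72 FPKM in Sangiovese of Bolgheri 2012, against 18.34, 46.03 and 77.92 FPKM (lowest, median, highest) in the other 15 Sangiovese libraries. Its Cabernet Sauvignon libraries of Bolgheri 2012 had 25.11, 27.7 and 31.15 FPKM at MR, against 26.02 to 94.89 FPKM in the other 15. At MR, the Cabernet Sauvignon mean was lowest in Bolgheri 2012 for 48 members, against 16.3% of all genes tested. At PV it was lowest there for 51 members, against 18.3%, and at both stages for 26, against 3.47%. It was highest there at both stages for no member (0), against 4.51% of all genes tested.

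By library, the high group stood clear of its own cultivar for fewer members. All 3 Sangiovese libraries of Bolgheri 2012 lay above the other 15 Sangiovese libraries for 47 members at MR, 57 at PV and 24 at both stages, against 6.79%, 9.98% and 0.753% of all genes tested. They lay above all other 33 libraries of the stage for 36 members at MR, 39 at PV and 12 at both, against 4.21%, 5.92% and 0.328%. The 3 Cabernet Sauvignon libraries of Bolgheri 2012 lay below the other 15 of that cultivar for 19 members at MR, 23 at PV and 6 at both, against 5.19%, 3.88% and 0.279%. These counts follow from values the rule used and are given as a description.

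Each cultivar's own shift was also taken, as Bolgheri 2012 minus the mean of the other 5 environments. The Sangiovese shift minus the Cabernet Sauvignon shift is not the margin, which is set against the largest other difference. In Sangiovese the median over members was 1.00 at MR and 1.07 at PV on the log2(FPKM + 1) scale. The shift was above 0 in all 100 members at each stage, against 42.0% of all genes tested at MR and 50.6% at PV. In Cabernet Sauvignon the median was -0.40 at MR and -0.49 at PV. The shift was below 0 in 85 members at MR and 93 at PV, against 47.3% and 53.3% of all genes tested. These shifts are made of group means that the rule used, so nothing is read from the gaps. The Sangiovese shift was the larger in size for 82 members at MR, 79 at PV and 68 at both stages. As a description, most members combined a high Sangiovese level with a smaller Cabernet Sauvignon deficit in the same place and year.

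**Figure D1:**
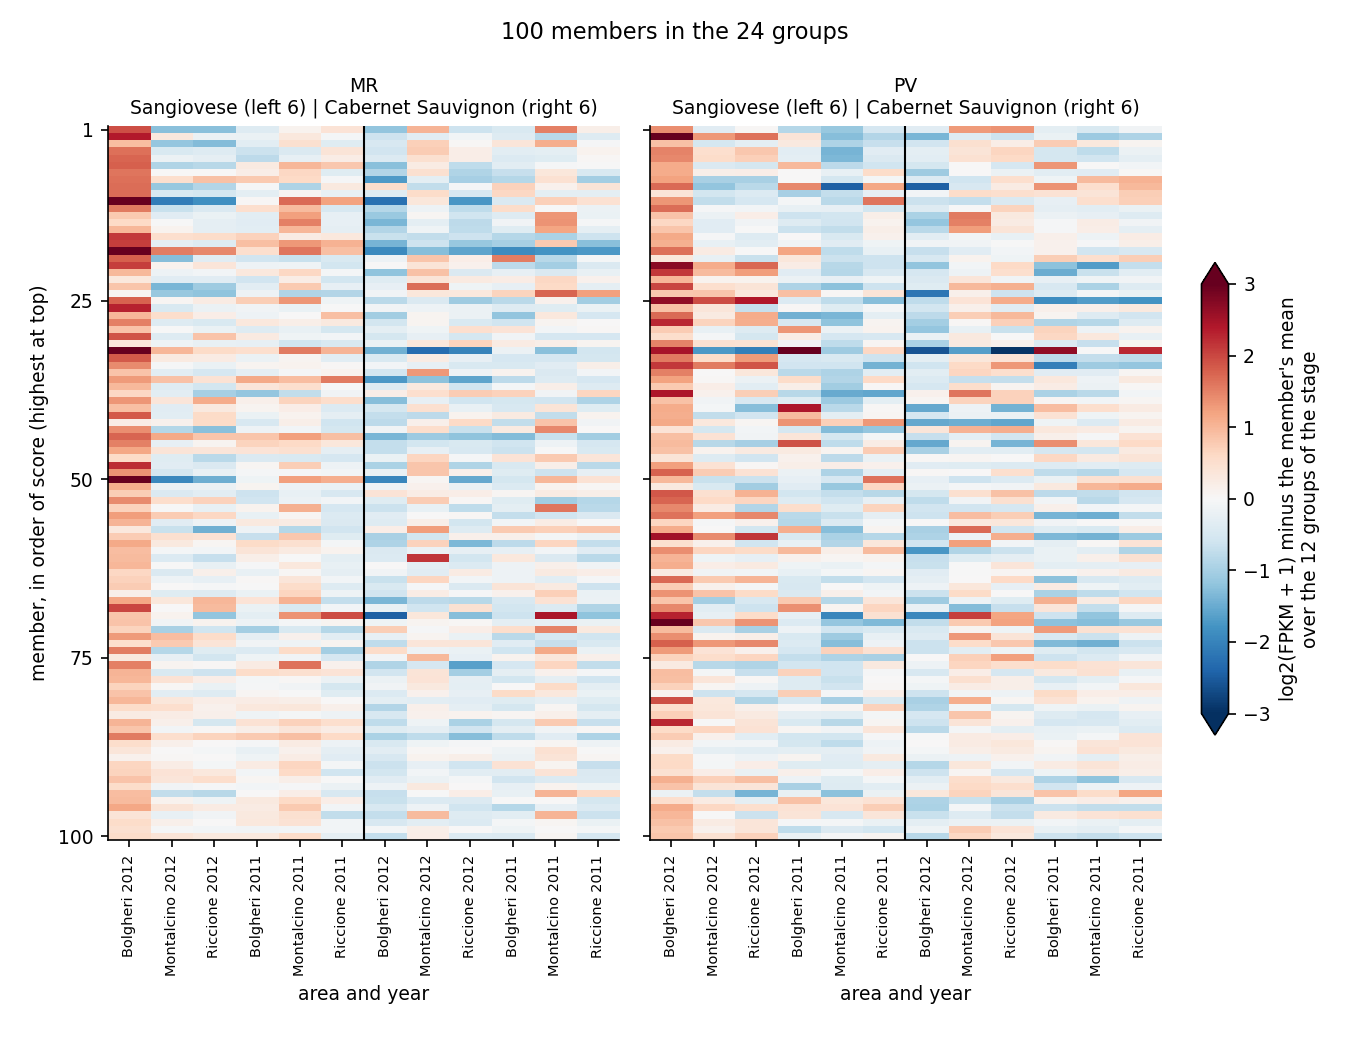
Heat map of the 100 members (rows, highest score at the top) in the 12 groups of each stage (columns, Sangiovese left of Cabernet Sauvignon). Colour is log2(FPKM + 1) minus the member's mean over the groups of that stage. The Sangiovese column of Bolgheri 2012 is high nearly throughout, with 86 members at their highest Sangiovese mean there at MR and 88 at PV.

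The cultivar difference had a large median in 1 environment and medians near 0 in the others. At MR its median over members was 1.44 in Bolgheri 2012, where 99 members were higher in Sangiovese, against 51.7% of all genes tested. In the other 5 environments the MR median ran between -0.16 (Montalcino 2012) and 0.23 (Bolgheri 2011). At PV the median was 1.68 in Bolgheri 2012, again with 99 members higher in Sangiovese, against 54.0% of all genes tested. Elsewhere the PV median ran between -0.31 (Montalcino 2011) and 0.11 (Bolgheri 2011). In Montalcino 2011 at PV only 30 of the 100 members were higher in Sangiovese, against 48.2% of all genes tested. Single members still differed outside Bolgheri 2012. At MR the difference in the other 5 environments ran between 1.315 and 2.09 for VIT_05s0124g00080, and between -2.69 and -0.89 for VIT_03s0017g02260. These values chose the members and carry no test.

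The mean log2(FPKM + 1) of the members shows the same by library. At MR it was 4.05, 3.91 and 3.59 in the Sangiovese libraries of Bolgheri 2012, and the next highest Sangiovese group, Montalcino 2011, averaged 2.99 ± 0.21 (SD, n = 3). At PV it was 4.00, 4.07 and 4.47 in the Sangiovese libraries of Bolgheri 2012, and the next highest Sangiovese group, Montalcino 2012, averaged 3.16 ± 0.07 (SD, n = 3). Cabernet Sauvignon of Bolgheri 2012 averaged 2.103 ± 0.083 at MR and 2.42 ± 0.12 at PV (SD, n = 3 each), its lowest group mean at each stage. The second place among Sangiovese groups was not fixed. For 51 members the highest other Sangiovese mean at MR was Montalcino 2011, whereas at PV it was Riccione 2012 for 33, Bolgheri 2011 for 27, Montalcino 2012 for 21, Riccione 2011 for 18 and Montalcino 2011 for 1.

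**Figure D2:**
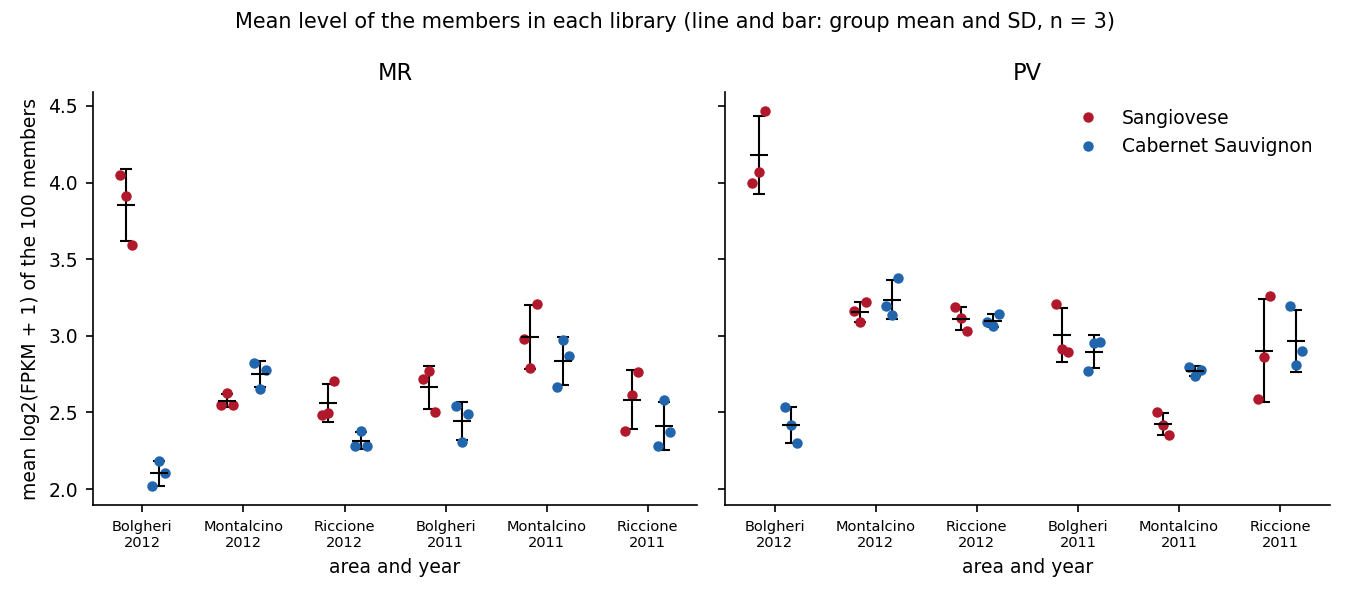
Mean log2(FPKM + 1) over the 100 members (vertical axis) in each library, by area and year (horizontal axis) and cultivar, with lines and bars for the group mean and SD (n = 3). The Sangiovese libraries of Bolgheri 2012 stand between 3.59 and 4.05 at MR and between 4.00 and 4.47 at PV, above all group means of the other environments.

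Replicates of the high group differed, and they did so in the same order for many members. At MR, replicate 1 was the highest of the 3 Sangiovese libraries in 67 members, against 45.3% of all genes tested, and replicate 3 was the lowest in 72, against 43.6%. At PV, replicate 3 was the highest in 80 members, against 44.4% of all genes tested. The MR replicate 3 was the shallowest of the 6 libraries (relative depth 0.825) and the PV replicate 3 the deepest (1.14). Whether depth bears on this order was not tested. The rule used the means of these libraries, so nothing is read from the gap to all genes.

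Each of these 6 libraries was also left out of the choice in turn and then examined. At MR, 75, 67 and 41 of the 100 genes chosen without replicate 1, 2 and 3 were higher in that replicate than in all 15 Sangiovese MR libraries of the other environments, where 14.6%, 13.4% and 11.3% of all genes tested were. At PV, the counts were 60, 61 and 77, against 14.1%, 14.5% and 18.3% of all genes tested. Between 86 and 96 of the genes chosen without a library were members. The count was lowest for the MR replicate 3. The other replicates of the same group and the 15 libraries of the comparison had served each choice. The counts therefore describe how alike the replicates were, and are no independent support for the high level.

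A choice made at 1 stage alone carried over to the other stage no more, or little more, than genes at large were called there. Of the 100 genes with the highest margin at PV alone, 17 had a called cultivar excess at MR, against 18.9% of all genes tested. The excess is the cultivar difference in Bolgheri 2012 minus its mean in the other 5 environments, and it was called with limma at a Benjamini-Hochberg adjusted p under 0.05. Their median excess at MR was -0.02 on the log2 scale, beside -0.06 for all genes. Of the 100 genes with the highest margin at MR alone, 33 were called higher at PV, against 28.9%, with a median of 0.285 beside 0.04. Both counts lay near the background. Only 2 genes stood in both choices, and the members include 9 and 25 of these genes. The margin of members was larger at MR for 34 and at PV for 66, and it was at least 1 (log2) at both stages for 29.

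The 10 members with the highest scores had scores between 1.40 and 2.31. VIT_06s0004g01010 had the highest, with margins of 3.03 at MR and 2.31 at PV. At MR it had 15.3, 13.2 and 8.33 FPKM in Sangiovese of Bolgheri 2012, against a lowest of 0.0547, a median of 1.04 and a highest of 8.42 FPKM in the 15 other Sangiovese libraries. The third replicate lay just inside the range of the others. Cabernet Sauvignon ran the other way: its Bolgheri 2012 libraries had 0.736, 0.244 and 0.584 FPKM, below all 15 of its other MR libraries (0.772 to 11.7 FPKM). At PV the gene had 4.40, 4.32 and 9.08 FPKM in Sangiovese of Bolgheri 2012, against 0 to 2.46 FPKM in the other 15 Sangiovese libraries, with no overlap.

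VIT_11s0065g00350 had margins of 2.02 at MR and 2.53 at PV. At MR it had 26.6, 17.05 and 8.07 FPKM in Sangiovese of Bolgheri 2012, against 1.125, 2.25 and 7.39 FPKM (lowest, median, highest) in the other 15 Sangiovese libraries. At PV it had 29.8, 24.9 and 47.7 FPKM, against 0.297, 3.52 and 12.15 FPKM. All 3 libraries lay above the others at each stage. The Cabernet Sauvignon libraries of the same site and year had 0.891, 1.87 and 1.06 FPKM at MR and 0.664, 0.0286 and 0.155 FPKM at PV, so that this gene was near the bottom of its scale in them.

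VIT_11s0052g01090 was mainly a PV gene, with 55.24, 52.3 and 82.55 FPKM in Sangiovese of Bolgheri 2012 at PV, against 14.2, 23.8 and 55.15 FPKM (lowest, median, highest) in the other 15 Sangiovese libraries. The groups overlapped in that the second replicate lay below the highest of the others. In Cabernet Sauvignon the order was turned round, with 24.8, 22.35 and 20.4 FPKM in Bolgheri 2012, below all 15 other PV libraries (27.4 to 72.3 FPKM). At MR it had 17.6, 13.9 and 8.32 FPKM in Sangiovese of Bolgheri 2012, against 1.46, 2.95 and 11.3 FPKM in the other 15.

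VIT_00s0480g00040 and VIT_00s0480g00030 are neighbours by ID and moved alike. VIT_00s0480g00040 had 40.1, 20.0 and 10.7 FPKM at MR in Sangiovese of Bolgheri 2012, against 2.99, 4.06 and 21.0 FPKM (lowest, median, highest) in the other 15. VIT_00s0480g00030 had 51.4, 22.5 and 14.6 FPKM, against 2.41, 5.23 and 20.1 FPKM. At MR replicates 2 and 3 of VIT_00s0480g00040 and replicate 3 of VIT_00s0480g00030 fell inside the others' range. At PV the spread was narrower: 36.98, 40.42 and 42.16 FPKM for VIT_00s0480g00040 against at most 27.35 FPKM, and 39.75, 45.9 and 44.7 FPKM for VIT_00s0480g00030 against at most 27.8 FPKM, with no overlap for either. Since libraries carry no strand and near-identical copies share reads, values of neighbouring IDs are not certain to be separate measurements.

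**Figure D3:**
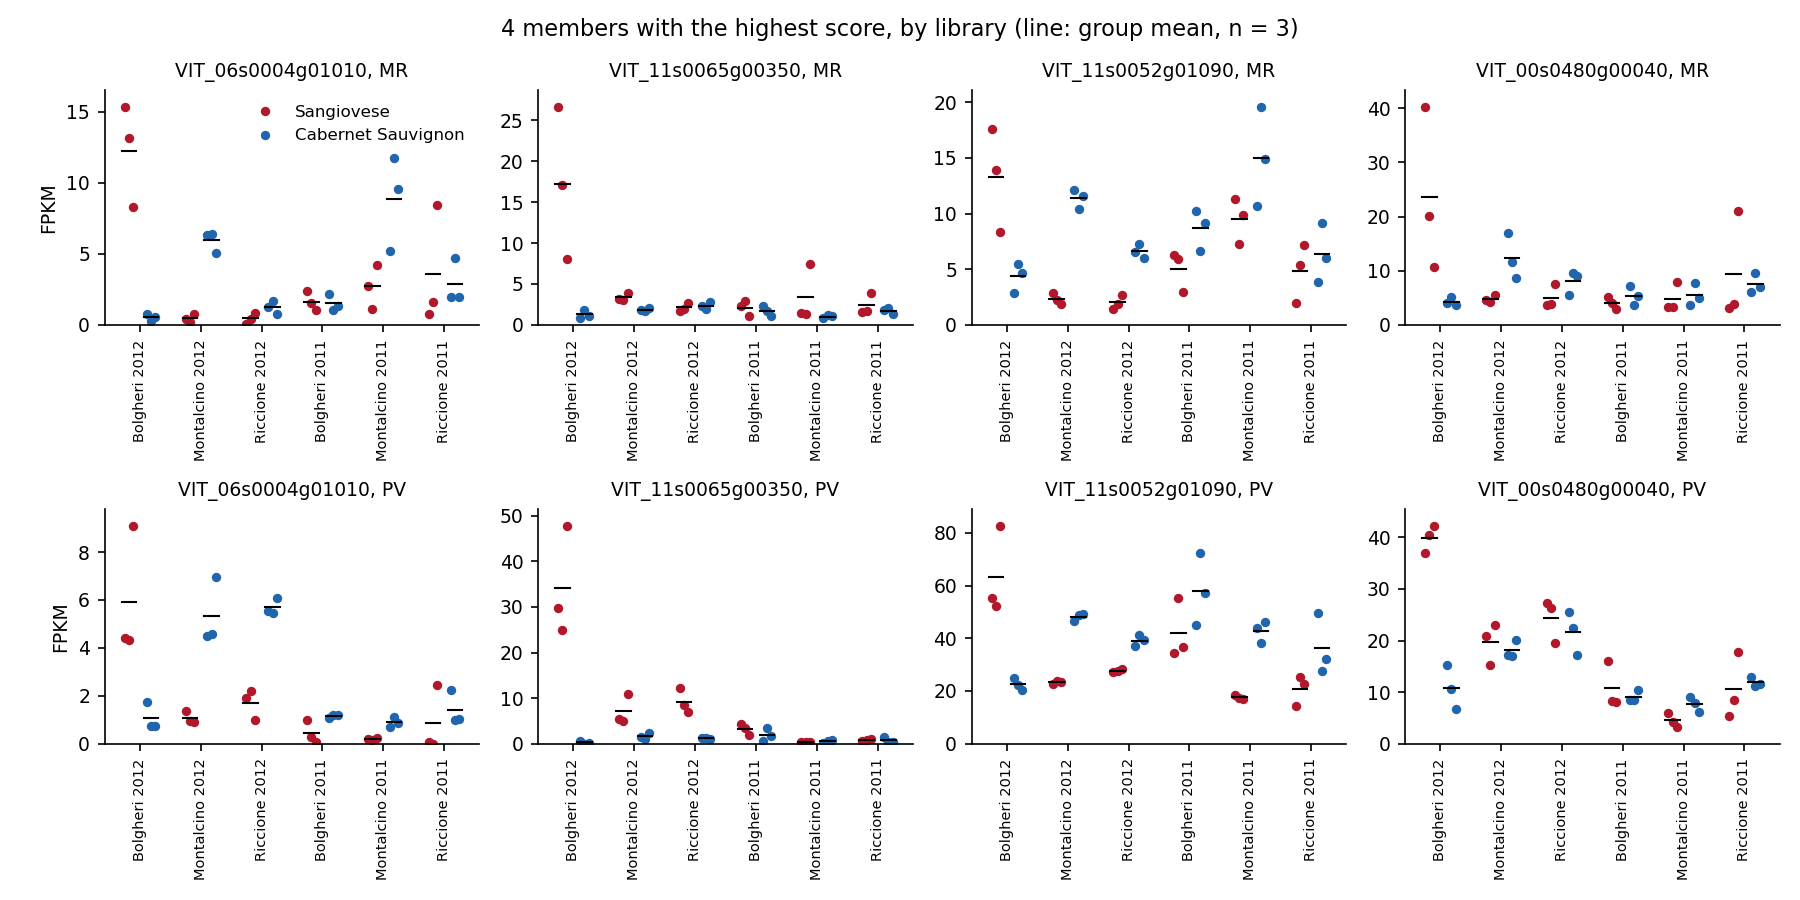
FPKM (vertical axis, from 0) of the 4 members with the highest scores in every library, by stage, area, year and cultivar, with a line for each group mean (n = 3). In the Sangiovese groups of Bolgheri 2012, VIT_11s0065g00350 reaches 26.6 FPKM at MR and 47.7 FPKM at PV, above all other libraries.

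The other 5 of the 10 differed in how far each cultivar shifted. VIT_01s0011g04860 had no overlap within either cultivar at PV, with 19.1, 19.6 and 25.2 FPKM in Sangiovese of Bolgheri 2012 against 7.24 to 15.8 FPKM in the other 15 Sangiovese libraries. Its Cabernet Sauvignon values were 3.96, 4.07 and 3.69 FPKM in Bolgheri 2012, against 6.41 to 11.7 FPKM in the other 15. VIT_05s0077g01670 varied little between replicates, with 27.85, 26.2 and 27.8 FPKM at MR and 34.04, 34.03 and 39.3 FPKM at PV in Sangiovese of Bolgheri 2012, above the highest of the others (22.97 and 20.14 FPKM). VIT_18s0166g00250 was not highest in every such library at PV: it had 52.3, 67.0 and 67.35 FPKM, while another Sangiovese library reached 81.1 FPKM. Its Cabernet Sauvignon libraries of Bolgheri 2012 had 2.20, 3.03 and 2.40 FPKM at PV, against a lowest of 11.01 and a median of 24.4 FPKM in the other 15.

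VIT_08s0040g01710 had 27.6, 20.45 and 13.4 FPKM at MR in Sangiovese of Bolgheri 2012, and the highest of the other Sangiovese libraries, at 17.4 FPKM, lay above the third replicate. At PV it had 19.2, 19.8 and 45.7 FPKM, and another Sangiovese library reached 38.1 FPKM, so that the third replicate alone stood above the rest. VIT_19s0014g02490 had 17.5, 9.665 and 7.93 FPKM at MR in Sangiovese of Bolgheri 2012, against 1.31, 2.03 and 4.60 FPKM (lowest, median, highest) in the other 15, without overlap.

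At the lower end, the last members inside the threshold were VIT_01s0146g00330 (score 0.54) and VIT_13s0156g00170 (0.53). The first genes outside it were VIT_17s0000g02470 and VIT_11s0016g03080 (0.51 each), so the boundary separates genes of like score.

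Members were neither all abundant nor switched on in a single place. Their mean in Sangiovese of Bolgheri 2012 ran from 1.30 to 151.8 FPKM at MR, with a median of 13.6, and from 1.94 to 313.0 FPKM at PV, with a median of 16.8. No member (0) stayed under 1 FPKM on average in all other 22 groups, and 54 reached 1 FPKM on average in all 24 groups. Listed zeros occurred in at least 1 library for 10 members. By ID, members fell into 59 blocks (the part of the ID before its last field), 24 of which held 2 or more and none more than 5. There were 11 runs of neighbouring IDs, 9 of 2 and 2 of 3 members, with 24 members among them.

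The 2 longest runs had unequal members. In the first, VIT_00s0231g00070 averaged 151.8 FPKM at MR and 111.2 FPKM at PV in Sangiovese of Bolgheri 2012, against 65.7 and 42.0 FPKM in Cabernet Sauvignon there. Its neighbours VIT_00s0231g00040 and VIT_00s0231g00080 averaged 8.92 and 8.35 FPKM at MR in Sangiovese of Bolgheri 2012, against 4.83 and 2.102 FPKM in Cabernet Sauvignon. In the second run, VIT_09s0002g05600 averaged 238.6 FPKM at PV in Sangiovese of Bolgheri 2012, against 116.8 FPKM in Cabernet Sauvignon there. The neighbour VIT_09s0002g05590 was far lower, at 3.06 FPKM at PV in Sangiovese of Bolgheri 2012 and 0.359 FPKM in Cabernet Sauvignon.

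The change between stages was asked of the members because the rule did not use it as such. The same libraries and Sangiovese means served the choice, however. In Sangiovese of Bolgheri 2012, 32 members rose and 47 fell at MR relative to PV (limma, adjusted p under 0.05), against 27.7% and 48.9% of all genes tested, and 21 were not called. The median change was -0.43 for members, beside -0.23 for all genes. In Sangiovese of the other 5 environments, 38 rose and 52 fell, against 33.0% and 52.7% of all genes. In Cabernet Sauvignon of those 5 environments, 31 rose and 59 fell, against 29.9% and 57.7%. The members' counts lay near the background in each, and no direction through ripening set them apart from genes at large. The split in Bolgheri 2012 moved with the scaling of libraries: it was 37 higher and 40 lower with median-of-ratios scaling, 41 and 39 with quantile normalization, and 23 and 57 after rescaling to a sum of 1000000, when the median of all genes was -0.04, 0.12 and -0.43.

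Of the members, 21 rose and 40 fell in all 3 of these stage comparisons, against 18.7% and 39.5% of all genes tested. VIT_03s0017g02260 fell the most. At MR it had 3.16, 5.504 and 2.795 FPKM in Sangiovese of Bolgheri 2012, and 0.555 to 5.29 FPKM in the other 15 Sangiovese libraries. At PV it had 202.2, 194.4 and 205.5 FPKM there, within the range of the other 15 (110.7 to 263.0 FPKM). The stage ranges did not overlap, and the log2 change was -5.43 (SE 0.274, limma, adjusted p = 2.46e-24) in Bolgheri 2012 and -6.02 (SE 0.122, adjusted p = 7.94e-43) elsewhere. In Cabernet Sauvignon elsewhere it fell by 3.59 (SE 0.122, adjusted p = 1.13e-32), the second largest fall after VIT_00s0361g00040, which fell by 3.87 there (SE 0.165, adjusted p = 3.38e-28). VIT_00s0361g00040 was also the other large fall in Sangiovese elsewhere, with 0.834 to 4.44 FPKM at MR and 10.5 to 128.1 FPKM at PV, without overlap (log2 change -2.93, SE 0.165, adjusted p = 8.14e-23).

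Among members that rose at MR outside Bolgheri 2012, VIT_05s0124g00080 led in Sangiovese, with 14.98, 28.48 and 44.95 FPKM at MR (lowest, median, highest of 15) and 1.43, 3.74 and 9.00 FPKM at PV. The ranges were apart, and the log2 change was 2.62 (SE 0.117, limma, adjusted p = 3.97e-27), with 1.75 (SE 0.263, adjusted p = 4.46e-08) in Bolgheri 2012. VIT_19s0014g01370 had 1.21 to 19.0 FPKM at MR and 0 to 0.593 FPKM at PV in those Sangiovese libraries (log2 change 2.36, SE 0.135, adjusted p = 1.24e-22). In Cabernet Sauvignon the leading rises were VIT_03s0063g01960 and VIT_12s0059g01400. VIT_03s0063g01960 had 10.32, 28.99 and 46.01 FPKM at MR and 0.664, 1.79 and 15.7 FPKM at PV (log2 change 3.07, SE 0.116, adjusted p = 1.45e-30), with the highest PV value inside the MR range. VIT_12s0059g01400 had 7.85 to 18.0 FPKM at MR and 1.69 to 3.72 FPKM at PV, without overlap (log2 change 2.02, SE 0.0676, adjusted p = 5.31e-33).

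The stage change in Sangiovese of Bolgheri 2012 minus that in Sangiovese elsewhere is a test of their difference. It was higher in 17 members and lower in 26, against 21.3% and 32.0% of all genes tested, and not called in 57. The rule asks for a margin at both stages and used the same Sangiovese means, so nothing is read from these counts. In 6 members the 2 stage calls were opposite, near the 5.3% of all genes tested, such as VIT_19s0014g02490, at 0.58 in Bolgheri 2012 and -0.35 elsewhere, and VIT_02s0025g00260, at 0.65 and -0.93.

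**Figure D4:**
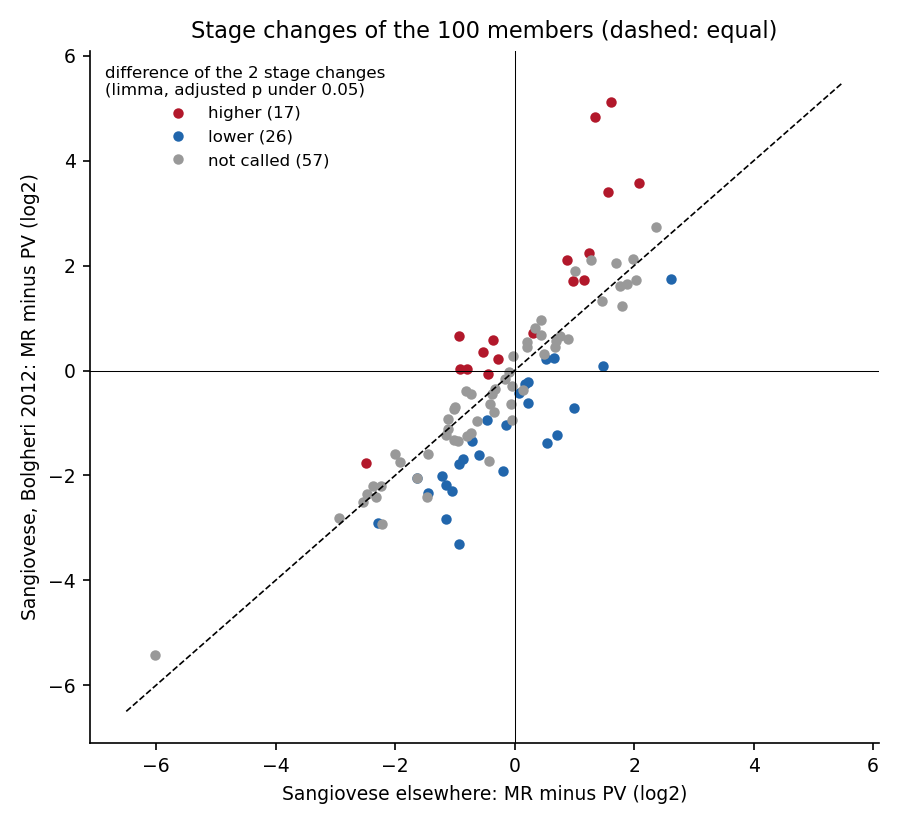
Log2 change at MR relative to PV of each member in Sangiovese of Bolgheri 2012 and in Sangiovese elsewhere, coloured by the limma call on the difference of the 2 changes, with a dashed line where they are equal. The difference was not called for 57 of the 100 points, which need not lie near the line. VIT_05s0077g01560 and VIT_05s0077g01570 lie farthest from the line.

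The 2 members with the largest positive difference are neighbours by ID. VIT_05s0077g01560 had 110.9, 141.4 and 92.2 FPKM at MR in Sangiovese of Bolgheri 2012, against 0, 2.74 and 64.4 FPKM (lowest, median, highest) in the other 15. At PV it had 0.497, 1.15 and 9.92 FPKM there, inside the range of the other 15 (0 to 14.3 FPKM). The gene was therefore apart at MR and not at PV. Its stage change was 5.12 in Bolgheri 2012 (SE 0.794, adjusted p = 9.24e-08) and 1.61 elsewhere (adjusted p = 4.89e-05), a difference of 3.51 (SE 0.8701, limma, adjusted p = 0.000587). With a pseudocount of 0.1 that difference was 3.09 and missed the threshold (adjusted p = 0.0504). VIT_05s0077g01570 had 74.2, 92.8 and 63.9 FPKM at MR, against 0.0326, 1.29 and 32.7 FPKM, and 0.277, 1.23 and 5.86 FPKM at PV. Its stage change was 4.84 (SE 0.7004, adjusted p = 1.83e-08), and the difference from elsewhere was 3.49 (SE 0.767, adjusted p = 0.000127). Cabernet Sauvignon of Bolgheri 2012 had 0.903, 0.463 and 0.628 FPKM of VIT_05s0077g01560 at MR.

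The largest negative differences were in VIT_07s0005g03220 and VIT_03s0091g00160. VIT_07s0005g03220 had 2.18, 1.14 and 0.571 FPKM at MR in Sangiovese of Bolgheri 2012, against 0 to 0.645 FPKM in the other 15. At PV it had 16.6, 17.7 and 30.5 FPKM, against 0, 0.298 and 7.18 FPKM. At MR the third replicate overlapped the others, and at PV the group was apart. Its stage change of -3.31 (SE 0.272, adjusted p = 5.65e-16) differed from that elsewhere by -2.37 (SE 0.298, limma, adjusted p = 2.05e-09). VIT_03s0091g00160 differed by -1.94 (SE 0.791, adjusted p = 0.035), with changes of -1.23 in Bolgheri 2012 (adjusted p = 0.117) and 0.71 elsewhere (adjusted p = 0.0389). This call was lost without any of 3 libraries of the group: it was -1.65 (adjusted p = 0.114) without PV replicate 3, -1.94 (0.0626) without MR replicate 2 and -1.78 (0.0871) without MR replicate 3. With a pseudocount of 0.1 it was -2.08 (adjusted p = 0.0758).

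Season was compared as 2012 minus 2011 over Montalcino and Riccione, with the mean of both cultivars. Bolgheri is not in it, and the rule used the cultivar difference, not the cultivar mean. The libraries of Montalcino and Riccione did enter the rule through that difference, so they were not independent of the choice of members. At PV, 52 members were higher in 2012, against 21.4% of all genes tested and 24.8% of the 13123 genes that reached the level the rule asks for. Lower in 2012 were 23 members, against 33.5% and 36.5%, and 25 were not called. The median was 0.22, beside -0.05 for all genes tested. Over the other settings and libraries left out, the count of higher members stayed between 49 and 56.

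At MR the members did not show this. There 15 were higher in 2012 and 35 lower, against 16.8% and 18.8% of all genes tested and 21.5% and 21.4% of the genes at the level of the rule. In 17 members the season call was higher at PV and lower at MR, a pattern that 2.41% of all genes tested had. In 11 members it was higher at both stages and in 8 lower at both, near the 8.07% and 8.8% of all genes tested.

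The season difference at PV was unequal between areas and cultivars. In Sangiovese of Montalcino 84 members had a higher mean in 2012 than in 2011, against 55.1% of all genes tested, and in Sangiovese of Riccione 48 did, against 39.4%. In Cabernet Sauvignon the counts were 67 at Montalcino (41.2% of all genes) and 55 at Riccione (41.5%). At MR, Sangiovese of Montalcino had 24 such members, against 41.4%, and the other 3 pairs had between 43 and 53. The difference between areas was not tested. Sangiovese of Montalcino thus had the most such members of the 4 pairs at PV and the fewest at MR. The rule used the means of each cultivar in these areas, so the counts by cultivar are a description.

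**Figure D5:**
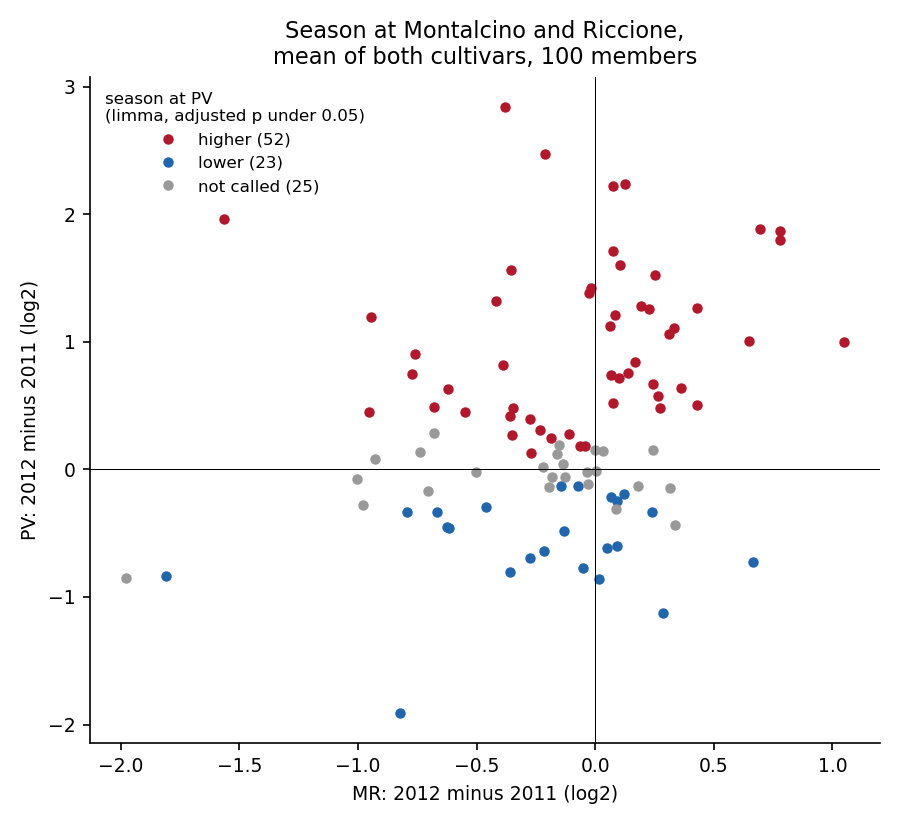
Season difference (2012 minus 2011, log2, mean of both cultivars over Montalcino and Riccione) of each member at PV and at MR, coloured by the limma call at PV. At PV 52 members are higher and 23 lower, and at MR 15 are higher and 35 lower.

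VIT_11s0052g01730 rose most in 2012 at PV, with 3.51, 13.3 and 33.1 FPKM (lowest, median, highest of 12 libraries of both cultivars), against 0.1404, 0.733 and 3.11 FPKM in 2011. The seasons did not overlap (log2 difference 2.84, SE 0.146, limma, adjusted p = 7.74e-23). In Sangiovese of Bolgheri 2012 at PV this gene had 23.4, 27.3 and 34.8 FPKM. VIT_09s0002g05610 had 5.95, 15.8 and 29.9 FPKM in 2012, against 0.602, 1.68 and 5.99 FPKM in 2011, with the ranges meeting at their ends (2.47, SE 0.1995, adjusted p = 1.63e-15).

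In the other direction at PV, VIT_01s0011g05150 had 0.182, 0.990 and 5.25 FPKM in 2012, against 0.403, 4.64 and 112.5 FPKM in 2011. Those ranges overlapped widely (-1.91, SE 0.496, limma, adjusted p = 0.00096). VIT_12s0057g01020 had 135.2 to 180.6 FPKM in 2012 against 203.0 to 387.3 FPKM in 2011 in Sangiovese, and 39.4 to 56.0 FPKM in 2012 against 93.1 to 188.6 FPKM in 2011 in Cabernet Sauvignon. It did not overlap within either cultivar (-1.13, SE 0.0877, adjusted p = 4.15e-16).

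At MR the rises were smaller. VIT_12s0059g01380 had 51.5 to 88.2 FPKM in 2012 against 30.8 to 45.9 FPKM in 2011 in Sangiovese, and 34.4 to 82.1 FPKM in 2012 against 15.95 to 27.9 FPKM in 2011 in Cabernet Sauvignon, apart in each cultivar (1.05, SE 0.137, limma, adjusted p = 1.55e-08). VIT_14s0068g02150 had 32.1, 41.5 and 59.5 FPKM in 2012, against 16.7, 23.9 and 38.9 FPKM in 2011 (0.78, SE 0.135, adjusted p = 6.46e-06). The falls were led by the same neighbouring pair as the stage difference. VIT_05s0077g01560 had 0, 1.41 and 12.3 FPKM in 2012, against 0.802, 9.19 and 64.4 FPKM in 2011 (-1.98, SE 0.397, adjusted p = 7.05e-05). VIT_05s0077g01570 had 0.0326, 1.26 and 6.03 FPKM in 2012, against 0.664, 7.04 and 32.7 FPKM in 2011 (-1.81, SE 0.350, adjusted p = 4.01e-05). Both pairs of ranges overlapped. At Montalcino and Riccione these 2 genes were thus lower in the season in which they were high in Sangiovese of Bolgheri.

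Bolgheri in 2011, the same area without the season of the rule, was compared with Montalcino and Riccione of 2011, again as the mean of both cultivars. These 2011 groups were among the other 5 environments of the rule, so they were not independent of the choice of members. At PV 26 members were higher there and 16 lower (limma, adjusted p under 0.05), against 18.8% and 29.5% of all genes tested. At MR 5 were higher and 19 lower, against 8.49% and 21.1%, counts near the background. The PV count of lower members was 10 without replicate 3 of Sangiovese from Bolgheri 2011 or from Riccione 2011. The MR count of higher members was 3 without replicate 2 of Sangiovese or replicate 3 of Cabernet Sauvignon from Bolgheri 2011, and 10 with median-of-ratios scaling.

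VIT_01s0011g05150 was the most raised at PV, with 10.3, 93.7 and 218.5 FPKM (lowest, median, highest of 6 libraries) in Bolgheri 2011, against 0.403, 4.64 and 112.5 FPKM in the 12 libraries of Montalcino and Riccione (log2 difference 3.34, SE 0.608, limma, adjusted p = 8.82e-06). VIT_13s0067g00330 had 2.29, 13.4 and 33.6 FPKM, against 1.05, 2.39 and 11.6 FPKM (1.70, SE 0.230, adjusted p = 2.5e-08). Both overlapped between areas. VIT_09s0002g05600 was lower without overlap, at 56.0, 78.6 and 93.6 FPKM in Bolgheri 2011, against 96.7, 111.5 and 120.8 FPKM (-0.52, SE 0.0692, adjusted p = 1.59e-08). VIT_14s0030g02310 had 2.98, 3.37 and 4.11 FPKM, against 2.64, 4.61 and 9.58 FPKM (-0.45, SE 0.1701, adjusted p = 0.0266), inside the range of the other areas. Its call was lost without any of 3 single libraries, at adjusted p between 0.0528 and 0.0654, and with a pseudocount of 0.1 (0.0732).

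At MR VIT_05s0020g02280 had 2.20, 3.54 and 3.84 FPKM in Bolgheri 2011, against 0.982, 2.21 and 3.41 FPKM (0.40, SE 0.1075, limma, adjusted p = 0.00294). VIT_00s0301g00100 had 1.55, 21.8 and 37.96 FPKM, against 4.925, 6.52 and 11.5 FPKM (0.72, SE 0.239, adjusted p = 0.017), a call that was lost without replicate 1 of Sangiovese from Bolgheri 2011 (0.30, adjusted p = 0.308) and with a pseudocount of 0.1 (0.69, adjusted p = 0.0672). The cultivars were unlike there: Sangiovese minus Cabernet Sauvignon at MR was -2.64 in Bolgheri 2011. It was 0.16 in Montalcino 2011 and -0.44 in Riccione 2011. The falls were led by VIT_03s0091g00160, with 0.885, 3.51 and 11.2 FPKM against 0.9225, 16.5 and 70.2 FPKM (-1.51, SE 0.442, adjusted p = 0.00724). Without replicate 3 of Sangiovese from Bolgheri 2011 it stood at -1.17 (adjusted p = 0.0502). VIT_12s0035g00020 had 0.749, 1.47 and 1.82 FPKM, against 0.968, 3.65 and 8.70 FPKM (-0.87, SE 0.1397, adjusted p = 3.18e-06). These ranges all overlapped between areas.

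Lists of phenylpropanoid genes were written from memory of published grapevine gene names and were not checked against an annotation. The members include 1 of 3 IDs for cinnamate 4-hydroxylase, 1 of 4 for 4-coumarate-CoA ligase, 1 of the 2 for MYB14 and MYB15, and 1 of the 3 tested for phenylalanine ammonia-lyase outside the left-out stretches. No member (0) is a listed stilbene synthase or chalcone synthase. The 49 IDs listed for stilbene synthase, 37 of them tested, are ranges that may hold other genes. They all lie in the stretches that the rule leaves out, and near-identical copies share reads.

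These lists were chosen with earlier results of the same data known, so their excess in Bolgheri 2012 is a description. The mean log2(FPKM + 1) of the listed stilbene synthases was 2.37 ± 0.48 at MR and 2.45 ± 0.56 at PV in Sangiovese of Bolgheri 2012, against 0.09 ± 0.04 and 0.24 ± 0.11 in Cabernet Sauvignon there (SD, n = 3 each). In the other Sangiovese groups it was at most 0.40 at MR and 1.31 at PV, both in Riccione, so the level stood apart at each stage. The excess was called higher for 37 of 37 at MR and 36 of 37 at PV, with medians of 2.32 and 1.96 on the log2 scale. Over all genes tested 18.9% were called higher and 28.9% lower at MR, and 28.9% higher and 23.3% lower at PV.

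The listed enzymes that make coumaroyl-CoA had an excess that was mixed in sign at MR and mostly higher at PV. Of the 3 cinnamate 4-hydroxylases, 2 were higher and 1 lower at MR, and all 3 were higher at PV. Of the 4 ligases, 1 was higher at MR and 2 lower, or 1 lower under each of 3 other scalings, and 3 were higher and 1 lower at PV, where rescaling to a fixed sum left 0 lower. Of the 3 phenylalanine ammonia-lyases tested outside the left-out stretches, 1 was higher and 1 lower at MR, and all 3 were higher at PV. With the left-out stretches included, 15 listed phenylalanine ammonia-lyases were tested. Of these, 9 were higher and 1 lower at MR (median 0.86), and 13 were higher and 0 lower at PV (median 1.465). The 3 chalcone synthases had a median of -0.58 at MR, and all 3 had a higher excess at PV, with a median of 1.785. Their mean log2(FPKM + 1) in Sangiovese at PV was 6.13 ± 0.35 in Bolgheri 2012, against 7.40 ± 0.39 in Bolgheri 2011, and in Cabernet Sauvignon of Bolgheri 2012 it was 3.68 ± 0.11 (SD, n = 3 each). The phenylalanine ammonia-lyases listed outside the left-out stretches likewise averaged 4.28 ± 0.56 in Sangiovese of Bolgheri 2012 at PV, against 4.87 ± 0.49 in Sangiovese of Bolgheri 2011, and 2.63 ± 0.34 in Cabernet Sauvignon of Bolgheri 2012 (SD, n = 3 each). For the listed chalcone synthases and these phenylalanine ammonia-lyases the excess at PV was thus a gap between cultivars in Bolgheri 2012 and not the highest Sangiovese level. The listed ligases differed: their Sangiovese mean at PV was highest in Bolgheri 2012, at 6.23 ± 0.11. The next highest Sangiovese group, Riccione 2012, had 5.71 ± 0.18 (SD, n = 3 each).

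By season, with Bolgheri not in the comparison, the listed stilbene synthases and chalcone synthases were called in opposite directions at PV. Of 37 stilbene synthases 27 were higher in 2012 and 0 lower (limma, median 0.49), and both MYB factors and 3 of the 4 ligases were higher too. The 3 chalcone synthases were all lower in 2012 (median -1.26), as were 2 of the 3 phenylalanine ammonia-lyases tested outside the left-out stretches. The whole list of phenylalanine ammonia-lyases was divided, with 6 of 15 tested higher and 4 lower (median 0.08). Over all genes tested 21.4% were higher and 33.5% lower. The 2 enzymes at the branch point kept these directions under median-of-ratios scaling, quantile normalization and rescaling to a fixed sum. At MR 3 stilbene synthases were lower in 2012, where quantile normalization gave 1 higher and 5 lower. In Bolgheri 2011 at PV the 3 chalcone synthases were higher than in the other areas (median 1.40), and the listed stilbene synthases had a median of 0.08.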

How the data were processed

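The deposited values are FPKM, 1 column per library for 29971 gene IDs, made by the authors. CASAVA 1.8.2, TopHat2 2.0.9 and Cufflinks 2.1.1 are named in the submitters' processing notes. For genome build, annotation and further scaling: not given in the sources used here. Per the labels' protocols, the libraries were made from total RNA without strand information. Read counts are unknown, so no count test or counting interval was computed: of the low values (below 3.5 reads at the fitted steps of 3135 genes), 83.7% lay within 0.1 of a whole read. Absolute depth is therefore unknown. Total FPKM per library was 813505 to 1014766.

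Genes averaging at least 1 FPKM in at least 1 group (20443) were transformed to log2(FPKM + 1), which understates changes of low genes, and fitted in limma 3.58.1 (R 4.3.3, eBayes with trend) with 24 group means and 48 residual degrees of freedom. Tests are two-sided, with Benjamini-Hochberg adjustment over all genes tested and a threshold of 0.05. The fit was tested on simulated data.

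The members and lists were chosen with earlier results of these data known. Named are the 10 highest scores, up to 2 members called each way with the largest difference in each tested comparison, the 2 genes on each side of the threshold of the rule, and runs of neighbouring IDs; VIT_02s0025g00260 was named after its values were seen. No cell type markers with certain IDs could be listed, so seed or other tissue in the samples was not checked. Alternatives covered pseudocounts of 0.1 and 5, filters, scalings, the level in the rule and each library left out.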

Additional observations from a re-analysis of the deposited data

Results flagged for a closer look

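In 4 members the change between stages in Sangiovese of Bolgheri 2012 differed from that in Sangiovese of the other 5 environments by a test of the difference itself (limma, adjusted p under 0.05), among those with the largest differences each way. VIT_05s0077g01560 differed by 3.51 and its neighbour by ID VIT_05s0077g01570 by 3.49 on the log2 scale, both rising more at MR in Bolgheri 2012. VIT_07s0005g03220 differed by -2.37 and VIT_03s0091g00160 by -1.94. Of these, VIT_07s0005g03220 fell more at MR in Bolgheri 2012, and the change of VIT_03s0091g00160 there, -1.23, was itself not called. The difference of VIT_03s0091g00160 was also lost without any of 3 single libraries, at adjusted p of 0.114, 0.0626 and 0.0871. In all, 17 members were called higher and 26 lower on this difference, against 21.3% and 32.0% of all genes tested. The rule did not use this difference as such, but the Sangiovese means it is made of entered the margins at both stages. It is therefore not independent of the choice of members.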

How the results depend on the processing

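Of the counts of calls and of members chosen again under the alternatives that leave out no library, 187 kept within 1.5 times their value and 4 moved further. Choosing by the mean of the PV and MR margins in place of the smaller gave 47 of the 100 members again. Genes chosen at PV alone and called higher at MR numbered 11 with a pseudocount of 5. Members higher in Bolgheri 2011 at MR numbered 10 with median-of-ratios scaling and 8 with quantile normalization. Leaving out each library in turn gave 10 to 17 members lower in Bolgheri 2011 at PV, 3 to 7 higher there at MR, and 86 to 100 members chosen again. The cause of these shifts was not tested. Under the same alternatives no call on a named member was reversed (0): 284 kept their side of the threshold, and 4 were lost with a pseudocount of 0.1. These were the stage differences of VIT_05s0077g01560 (3.09, adjusted p = 0.0504) and VIT_03s0091g00160 (-2.08, 0.0758), and the Bolgheri 2011 differences of VIT_14s0030g02310 (-0.52, 0.0732) and VIT_00s0301g00100 (0.69, 0.0672). Leaving out a single library ended a call on a named member in 8 cases, 4 of VIT_03s0091g00160, 3 of VIT_14s0030g02310 and 1 of VIT_00s0301g00100. No paired analysis was possible because replicates carry no number in the labels and were numbered in accession order. Low values are least precise in the shallow library of Cabernet Sauvignon at PV in Bolgheri 2012, and without it and the deepest library 95 members were chosen again, an alternative added after seeing the data.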
